A study of Mus musculus with 7 samples.

Results

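Tendons join muscle to bone, and their fibers end on the muscle at the myotendinous junction, where force passes from the contractile fiber into collagen. Tenocytes, the fibroblasts of tendon, are set up by the transcription factors scleraxis and Mohawk and secrete a collagen matrix whose fibrils are shaped by leucine-rich proteoglycans and thrombospondins. RNA from a whole muscle holds some of this tissue, so that the transcripts of tendon can be followed beside those of the fibers. Here 9 such genes were taken by name, of 22180 genes with 1 symbol on the array. They are the regulators Scx (scleraxis) and Mkx (Mohawk), the mature tenocyte marker Tnmd (tenomodulin), the leucine-rich proteins Fmod (fibromodulin), Kera (keratocan) and Chad (chondroadherin), the thrombospondins Thbs4 and Comp, and Cilp2 of the cartilage intermediate layer proteins. Each gene was read from 1 feature of the array, and for Fmod, which had 2, the one with the higher mean was used.

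The samples were 7 gene arrays of RNA from the whole skeletal muscle of C57BL/6 mice. They are numbered as replicates, with no statement that each came from a separate mouse, so that p-values measure the spread between these samples, which may be technical. There were 2 arrays of aged MISR mice (24 months, replicates 1 and 2), 2 arrays of aged WT mice (24 months, replicates 2 and 3) and 3 arrays of young WT mice (2 to 3 months, replicates 1 to 3). MISR mice carry a transgene in which the muscle creatine kinase (MCK) promoter drives the IκB super-repressor, an inhibitor of NF-κB, in muscle fibers and not in satellite cells. There was no young MISR group. By the methods MISR mice were bred in house and C57BL/6 mice came from commercial colonies. The source of the WT mice on the arrays is not given, and in the regeneration experiments MISR mice aged in parallel with WT controls. The sources used here do not give which muscle was taken or how tendon was trimmed from it. On this the amount of tendon in each sample would depend. The deposited values are signals from the robust multi-array average (RMA) on the log2 scale, and the array medians over 41345 features lay between 5.86 and 5.93. Groups were compared with limma in 1 fit of the 13364 genes whose signal reached the median of the array in 2 arrays or more. A gene was called where its p, adjusted by Benjamini-Hochberg over all these genes, was under 0.05. Of the 9 genes 8 were tested. Mkx lay below the median in all 7 arrays and was not tested, and Tnmd passed through only 2 arrays, aged MISR replicate 2 and young WT replicate 1. The 11 markers of muscle fibers read between 11.4 and 13.8 over the 7 arrays, as a check of the labelled tissue only.

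The promoters of the 5 genes that moved together most closely across the arrays are shown, to set their sequence beside that pattern. Scleraxis is a basic helix-loop-helix factor and binds E-boxes (CANNTG). Each window is listed as running from 250 bases before to 50 bases after a start (RefSeq, GRCm38.p6). It is written 5′ to 3′ on the strand of the gene, with every CANNTG, which reads the same on both strands, in capitals. The window of Kera begins at 97606955 and its annotated gene at 97606962, so that most of that window lies inside the gene.
Tnmd (chrX:133850758-133851057, plus strand): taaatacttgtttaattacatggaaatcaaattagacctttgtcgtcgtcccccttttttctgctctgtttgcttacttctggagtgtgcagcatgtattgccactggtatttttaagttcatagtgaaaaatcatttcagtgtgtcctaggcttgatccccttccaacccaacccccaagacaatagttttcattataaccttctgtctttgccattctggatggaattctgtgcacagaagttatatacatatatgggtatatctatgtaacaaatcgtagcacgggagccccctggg
Fmod (chr1:134037004-134037303, plus strand): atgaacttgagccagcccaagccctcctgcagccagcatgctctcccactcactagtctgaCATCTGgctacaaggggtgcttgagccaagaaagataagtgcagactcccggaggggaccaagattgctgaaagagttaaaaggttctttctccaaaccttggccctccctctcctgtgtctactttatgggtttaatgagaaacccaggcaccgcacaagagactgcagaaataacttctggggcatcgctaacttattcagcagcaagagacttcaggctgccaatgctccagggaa
Thbs4 (chr13:92794769-92795068, minus strand): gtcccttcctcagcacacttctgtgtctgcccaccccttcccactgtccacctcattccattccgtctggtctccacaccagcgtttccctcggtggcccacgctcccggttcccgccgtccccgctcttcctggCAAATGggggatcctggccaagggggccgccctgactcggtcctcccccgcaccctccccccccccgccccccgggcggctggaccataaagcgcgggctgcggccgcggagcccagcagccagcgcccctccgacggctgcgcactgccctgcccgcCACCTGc
Kera (chr10:97606955-97607254, plus strand): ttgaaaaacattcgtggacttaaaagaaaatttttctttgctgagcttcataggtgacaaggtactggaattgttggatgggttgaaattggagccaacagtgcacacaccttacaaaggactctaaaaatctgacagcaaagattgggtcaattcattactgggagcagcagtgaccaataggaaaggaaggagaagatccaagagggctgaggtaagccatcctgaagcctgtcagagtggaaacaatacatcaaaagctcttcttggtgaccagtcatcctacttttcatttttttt
Chad (chr11:94564797-94565096, plus strand): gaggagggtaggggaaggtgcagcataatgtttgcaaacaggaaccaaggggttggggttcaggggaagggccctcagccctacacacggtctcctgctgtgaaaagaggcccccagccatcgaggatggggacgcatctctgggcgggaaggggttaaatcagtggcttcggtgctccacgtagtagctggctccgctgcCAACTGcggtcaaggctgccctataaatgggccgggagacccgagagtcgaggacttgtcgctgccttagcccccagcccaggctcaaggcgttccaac
Windows were used for 6 of the 9 genes, and none was used for Scx, Mkx and Comp, whose promoters were not searched. An E-box was found in 4 of these 6, with 1 match in Fmod, 2 in Thbs4, 1 in Chad and 1 in Cilp2, and in 72.3% of 32841 promoters of the same length. No CANNTG stood in the windows of Tnmd and Kera, and that of Kera lay mostly inside the gene. The narrower letters CAGATG, searched on both strands and contained in CANNTG, were found in Fmod alone of the 6 and in 17.2% of all promoters. An NF-κB motif, also searched on both strands, was found in Tnmd alone of the 6 and in 11.2% of all promoters. These matches describe letters in the windows and not binding.

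Kera stood apart from the other tendon genes, since its signal was lower in all 4 aged arrays than in all 3 young ones. Keratocan is a keratan sulfate proteoglycan of cornea and tendon that spaces collagen fibrils. Its signal was 6.51 and 6.93 (log2) in aged MISR replicates 1 and 2, 6.60 and 7.39 in aged WT replicates 2 and 3, and 7.91, 8.05 and 7.62 in young WT replicates 1 to 3. This order was shared by 5.34% of the tested genes. The mean signal was 6.72 ± 0.30 in aged MISR muscle and 7.86 ± 0.22 in young WT muscle (SD, n = 2 and 3), which is 0.452 of the young level on the linear scale, and the mean of aged WT muscle stood at 0.549 of the young level. The log2 difference from young WT was −1.15 in aged MISR muscle (standard error 0.25, adjusted p = 0.101 from limma) and −0.86 in aged WT muscle (standard error 0.25, adjusted p = 0.182). Neither passed the test over all genes. With aged WT replicate 2 left out, the difference of aged WT muscle was −0.47, and with aged MISR replicate 1 left out that of aged MISR muscle was −0.94, so that the size in aged WT muscle depended on 1 array.

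Chad and Fmod, also leucine-rich proteins, separated the replicates of aged WT muscle more than they separated the groups. Chondroadherin binds collagen and integrins in cartilage and tendon. Chad read 7.29 and 7.49 in aged MISR replicates 1 and 2, 6.97 and 8.35 in aged WT replicates 2 and 3, and 8.08, 8.19 and 8.44 in young WT replicates 1 to 3. Both aged MISR arrays lay below the young ones, while aged WT replicate 3 fell among them and aged WT replicate 2 was the lowest of all. The difference from young WT was −0.84 in aged MISR muscle (standard error 0.35, adjusted p = 0.262 from limma) and −0.58 in aged WT muscle (standard error 0.35, adjusted p = 0.461). Leaving out aged WT replicate 2 gave an aged WT difference of 0.11, and leaving out replicate 3 gave −1.27.
Fibromodulin binds collagen type I fibrils and governs their thickness. Fmod read 7.79 and 8.42 in aged MISR replicates 1 and 2, 7.69 and 8.62 in aged WT replicates 2 and 3, and 8.42, 8.50 and 8.42 in young WT replicates 1 to 3. The young arrays were within 0.09 of each other, and each aged group had 1 array near or above them and 1 array well below. The difference from young WT was −0.34 in aged MISR muscle (adjusted p = 0.515 from limma) and −0.29 in aged WT muscle (adjusted p = 0.629). When the low array was left out it was −0.03 in aged MISR muscle and 0.17 in aged WT muscle. The second, dimmer feature of Fmod showed the same low array in aged WT muscle, at 6.64 against 7.29 in aged WT replicate 3, and read 6.78 and 6.85 in aged MISR muscle against 6.85, 6.83 and 7.03 in young WT muscle.

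Thbs4 had the widest gap between aged WT replicates among the thrombospondins. Thrombospondin 4 is a matrix protein of tendon and of the junction, which in mice and flies helps to anchor muscle to its attachment. Thbs4 read 8.97 and 9.83 in aged MISR replicates 1 and 2, 8.37 and 9.58 in aged WT replicates 2 and 3, and 9.65, 9.72 and 9.59 in young WT replicates 1 to 3. Both aged WT arrays lay below the young ones, although replicate 3 did so by a narrow margin, and the aged MISR arrays lay on either side of them. The difference was −0.68 for aged WT against young WT muscle (standard error 0.36, adjusted p = 0.409 from limma), 0.43 for aged MISR against aged WT muscle (standard error 0.40, adjusted p = 0.702) and −0.26 for aged MISR against young WT muscle (adjusted p = 0.717). Without aged WT replicate 2 the first was −0.08 and the second −0.18, and without aged MISR replicate 1 the third was 0.18.
Comp, the cartilage oligomeric matrix protein, is a thrombospondin that assists collagen fibril assembly. Comp read 6.78 and 6.60 in aged MISR replicates 1 and 2, 6.35 and 7.04 in aged WT replicates 2 and 3, and 6.84, 6.71 and 6.81 in young WT replicates 1 to 3. The 2 aged WT arrays were the lowest and the highest of the 7, and their mean differed from that of young WT muscle by only −0.09 (95% interval −0.53 to 0.34, adjusted p = 0.829 from limma).

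Tnmd followed the same division of the aged arrays, at signals close to the array median. Tenomodulin is a transmembrane glycoprotein of mature tenocytes and a known target of scleraxis. It read 5.04 and 5.88 in aged MISR replicates 1 and 2, 5.23 and 5.84 in aged WT replicates 2 and 3, and 6.05, 5.76 and 5.86 in young WT replicates 1 to 3. The low array of each aged group lay well below every young array, and the other lay among them. The difference from young WT was −0.43 in aged MISR muscle (adjusted p = 0.408 from limma) and −0.35 in aged WT muscle (adjusted p = 0.546). Both nearly vanished when the low array was left out, at −0.0051 without aged MISR replicate 1 and −0.047 without aged WT replicate 2.

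Cilp2 was the member whose aged MISR arrays both lay below all 5 WT arrays. Its product belongs to a family of matrix proteins of cartilage and other connective tissue. Cilp2 read 5.97 and 6.37 in aged MISR replicates 1 and 2, 6.48 and 6.45 in aged WT replicates 2 and 3, and 6.76, 6.43 and 6.50 in young WT replicates 1 to 3. The aged WT arrays differed by 0.03 and lay within the young range. The difference was −0.29 for aged MISR against aged WT muscle (standard error 0.15, adjusted p = 0.489 from limma) and −0.39 for aged MISR against young WT muscle (standard error 0.14, adjusted p = 0.203). Without aged MISR replicate 1 these differences were −0.093 and −0.19.

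Neither transcription factor had the 2 low arrays of Tnmd, Fmod and Thbs4. Scx read 7.30 and 7.21 in aged MISR replicates 1 and 2, 7.27 and 7.19 in aged WT replicates 2 and 3, and 6.90, 7.21 and 7.21 in young WT replicates 1 to 3. It was the one gene of the 9 with a higher mean in both aged groups than in young WT muscle, by 0.15 in aged MISR muscle (95% interval −0.10 to 0.40, adjusted p = 0.454 from limma) and by 0.12 in aged WT muscle (95% interval −0.13 to 0.37, adjusted p = 0.600). The lowest of its 7 values was young WT replicate 1, and the other 6 lay between 7.19 and 7.30. Mkx read 5.76 and 5.45 in aged MISR replicates 1 and 2, 5.47 and 5.76 in aged WT replicates 2 and 3, and 5.70, 5.88 and 5.65 in young WT replicates 1 to 3. Every value of Mkx was under the median of its array, and its groups were not tested.

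**Figure D1:**
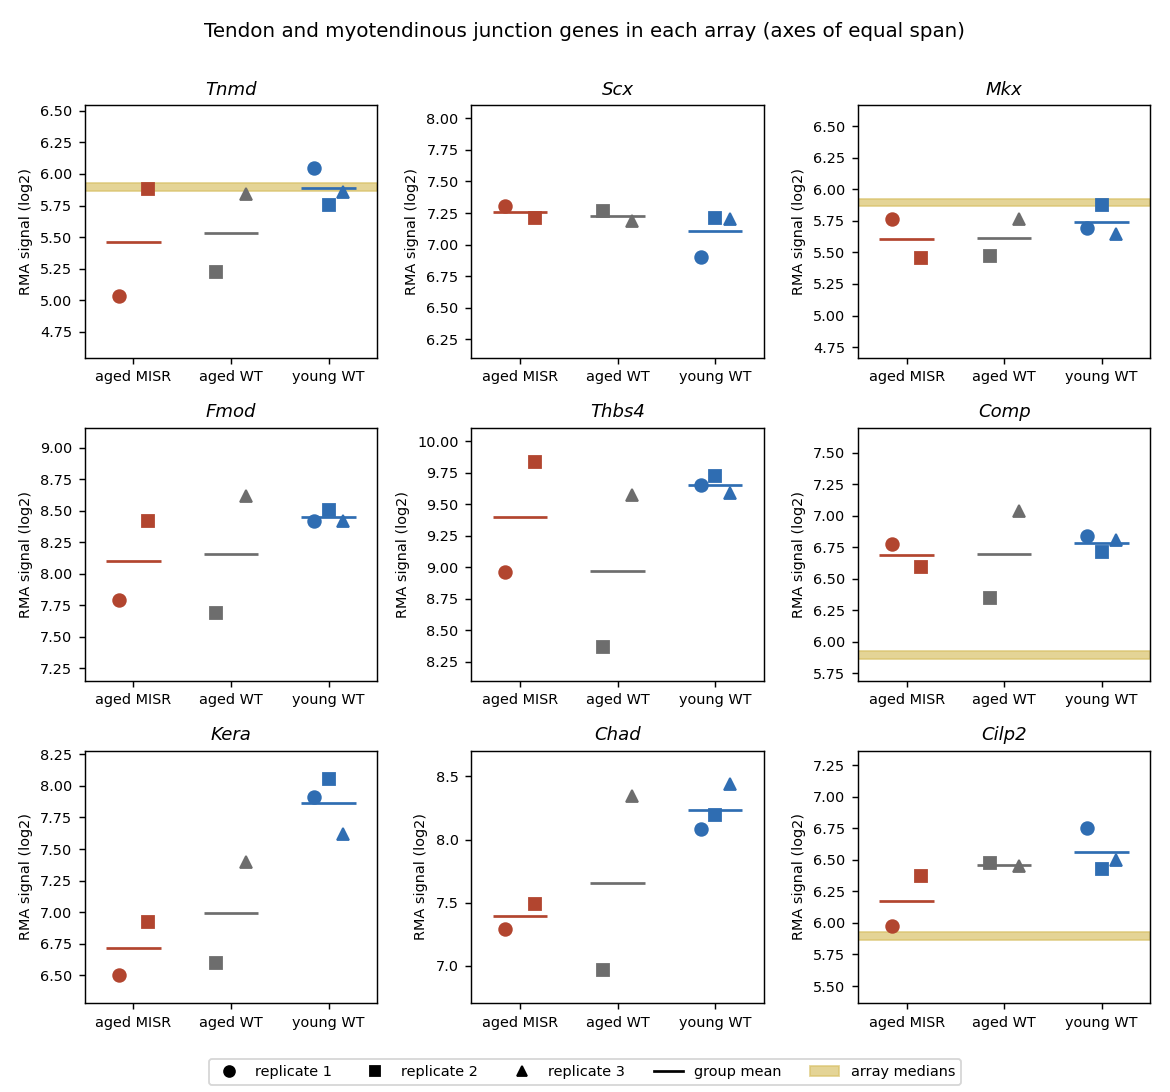
RMA signal (log2) of the 9 genes in each array, with groups on the horizontal axis, symbols for the replicate number, a line for the group mean and a band for the array medians (5.86 to 5.93). Kera is the gene whose 4 aged arrays all lie below its 3 young WT arrays, and in Tnmd, Fmod and Thbs4 1 array of each aged group lies far below the other.

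Over the list, no tendon gene passed the test in any comparison. Between aged WT and young WT muscle 0 of 8 tested genes were called by limma, where 0.18% of all tested genes were, and 1 gene (Kera) had an unadjusted p under 0.05, where 15.7% of all genes did. Between aged MISR and young WT muscle 0 of 8 were called, where 0.591% of all genes were, and 3 genes (Kera, Chad and Cilp2) had an unadjusted p under 0.05, where 18.8% did. Between aged MISR and aged WT muscle 0 of 8 were called, where 0.0524% of all genes were, and 0 of 8 had an unadjusted p under 0.05, where 12.2% did. The 2-group test that the methods name for other experiments of the study also called 0 of 8 in each comparison.
The mean lay below that of young WT muscle in 8 of 9 genes in aged MISR muscle and in 8 of 9 in aged WT muscle, Scx being the exception in both. The aged WT count rested on 1 array, since without aged WT replicate 2 only 4 of the 8 tested genes were lower, with a median of 0.017 in place of −0.32. Of all tested genes, 39.3% had a mean below that of young WT muscle in aged MISR muscle and 47.8% did in aged WT muscle. Both comparisons use the same 3 young WT arrays. The median log2 difference of the 9 genes was −0.34 in aged MISR and −0.29 in aged WT muscle, beside 0.04 and 0.01 for the median of all tested genes. Between aged MISR and aged WT muscle it was −0.05, beside 0.01, with a lower aged MISR mean in 7 of 9 genes and in 45.8% of all tested genes. Arrays did not overlap for 3 of 9 genes between aged MISR and young WT muscle (Kera, Chad and Cilp2, all lower), where 13.6% of all genes were lower without overlap. The count was 2 of 9 between aged WT and young WT muscle (Kera and Thbs4, both lower, background 15.7%) and 1 of 9 between aged MISR and aged WT muscle (Cilp2, lower, background 15.4%). In whole muscle, fewer tenocytes in the sample and less RNA of these genes per tenocyte cannot be told apart.

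**Figure D2:**
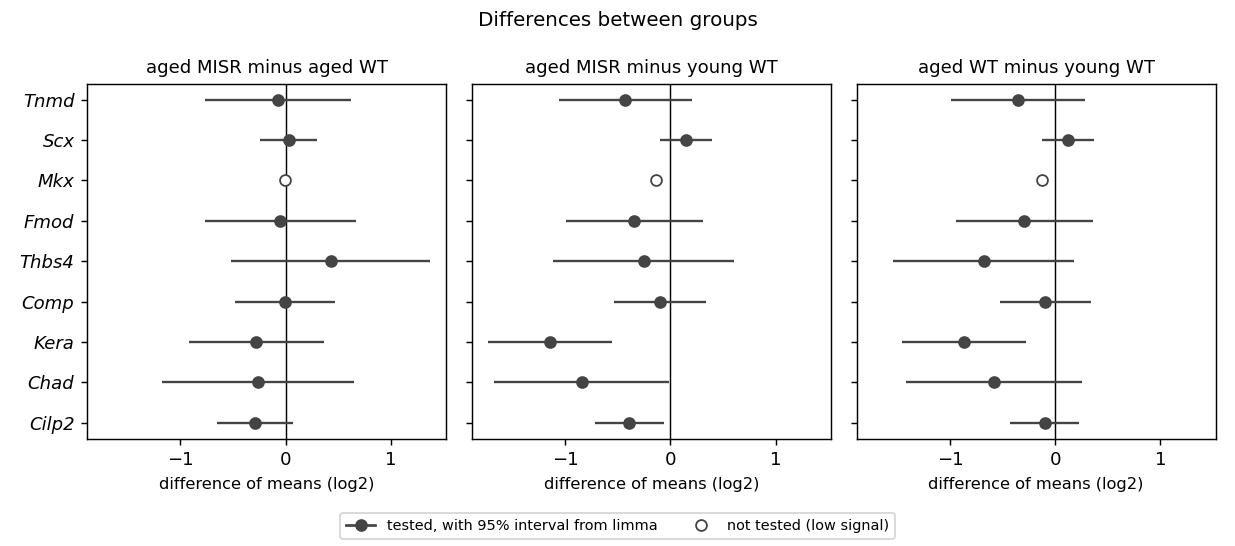
Difference of group means (log2) for the 9 genes in the 3 comparisons, with 95% intervals from limma as bars and an open symbol for Mkx, which was not tested. The intervals of Kera leave out 0 against young WT in both aged groups (−1.73 to −0.56 for aged MISR and −1.45 to −0.28 for aged WT muscle), without passing after adjustment.

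In each aged group 1 replicate was lower than the other for most of the tested tendon genes. For Tnmd, Fmod, Thbs4, Kera and Chad, 5 of the 9 genes, aged MISR replicate 1 and aged WT replicate 2 were the 2 lowest of the 7 arrays, a pattern held by 7.87% of all tested genes. The pattern was picked after the values of these genes were seen, so that the share beside it is a description only. With every gene set to a mean of 0 across the arrays, the median of the 8 tested genes was −0.46 and −0.01 in aged MISR replicates 1 and 2, −0.51 and 0.18 in aged WT replicates 2 and 3, and 0.26, 0.17 and 0.17 in young WT replicates 1 to 3. Aged WT replicate 3 thus fell among the young arrays, aged MISR replicate 2 slightly below them, and the other 2 aged arrays well below.
In aged WT muscle the signal was higher in replicate 3 than in replicate 2 by a median of 0.743 over the 8 tested genes, beside a median of 0.0058 over all tested genes. Single gaps were 1.38 in Chad, 1.21 in Thbs4, 0.93 in Fmod, 0.80 in Kera, 0.69 in Comp and 0.61 in Tnmd, while Cilp2 and Scx differed by −0.03 and −0.08. In aged MISR muscle replicate 2 was higher than replicate 1 by a median of 0.409, beside −0.0018 over all tested genes, with 0.87 in Thbs4, 0.85 in Tnmd and 0.62 in Fmod, but only 0.20 in Chad and −0.18 in Comp. Comp was thus not low in aged MISR replicate 1, and Cilp2 was not low in aged WT replicate 2.
When both low arrays were left out, a setting chosen after the values were seen, the median difference from young WT was −0.11 in aged MISR and 0.017 in aged WT muscle. Kera then stood at −0.94 (adjusted p = 0.153 from limma) and −0.47 (adjusted p = 0.312), and Chad at −0.75 and 0.11. Each aged group is a single array in this setting and was assumed to vary like the others.

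A block of 5 genes moved together most closely. Over the 7 arrays the 10 pairs among Tnmd, Fmod, Thbs4, Kera and Chad had a Pearson's r of 0.701 to 0.922, the closest being Fmod with Thbs4 and Fmod with Tnmd (0.907). Comp joined through Chad (0.776) and Cilp2 through Tnmd (0.749), but Comp and Cilp2 were nearly unrelated to each other (0.0521). All 8 pairs with Scx were below 0, with Cilp2 at −0.781 and Tnmd at −0.701. These values are a description of 7 points that share the group differences and the 2 low arrays, and no p is given.

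**Figure D3:**
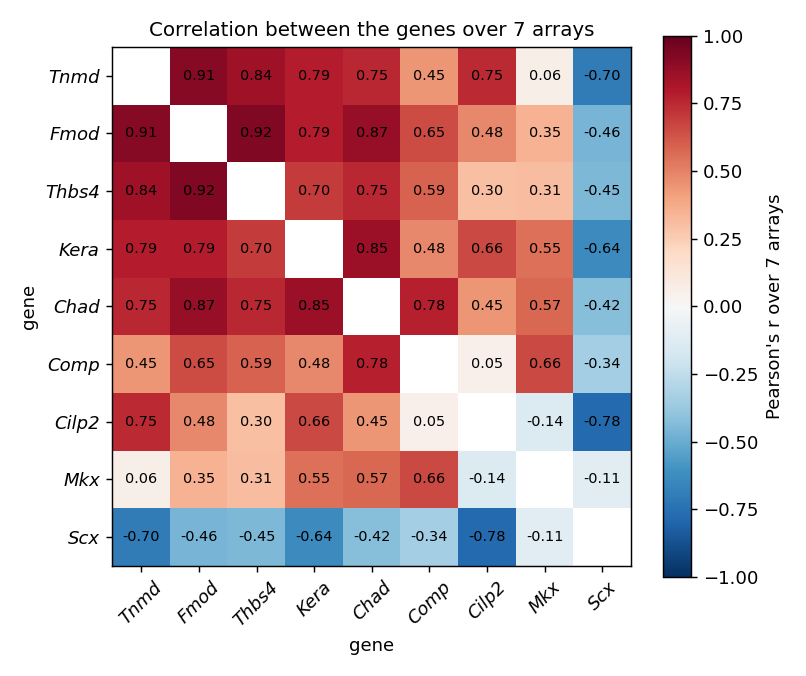
Pearson's r between the genes over the 7 arrays, with a gene on each axis and the value in each cell. Tnmd, Fmod, Thbs4, Kera and Chad form a block at 0.701 or above, and the row of Scx is below 0 throughout.

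By the same measure, the tested genes outside the list whose signal was most like the mean of the 8 tendon genes were Slc30a2 (r = 0.985 over 7 arrays), Psme4 (0.970), Ubac1 (0.967), Ccn2 (0.966), Angptl7 (0.964), Fsd1l (0.963), Trip6 (0.959) and Gm19466 (0.955), of 13356 compared. Slc30a2, a zinc transporter, read 7.09 and 7.65 in aged MISR replicates 1 and 2, 6.85 and 7.94 in aged WT replicates 2 and 3, and 8.12, 8.21 and 7.93 in young WT replicates 1 to 3. Ccn2, the connective tissue growth factor, read 8.27 and 8.48 in aged MISR, 8.12 and 8.68 in aged WT, and 8.70, 8.81 and 8.85 in young WT muscle. Angptl7, a secreted protein of cornea and connective tissue, read 7.12 and 7.67 in aged MISR, 7.19 and 7.96 in aged WT, and 7.82, 7.99 and 7.75 in young WT muscle. Each had its 2 lowest values in aged MISR replicate 1 and aged WT replicate 2, like the tendon block, and none was called in any comparison. The genes most like Tnmd alone were Vipr1 (0.979), Adam11 (0.975) and Agpat3 (0.973).

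The medians of related matrix genes were low in aged WT replicate 2 and not in aged MISR replicate 1. Of 18 genes of tendon fibrils and matrix 16 were tested, and their median relative to the gene means was 0.08 and 0.11 in aged MISR replicates 1 and 2, −0.45 and −0.10 in aged WT replicates 2 and 3, and 0.03 to 0.15 in young WT muscle. Of the 15 further small leucine-rich proteoglycans 10 were tested, at −0.07 and 0.23 in aged MISR, −0.36 and −0.06 in aged WT, and 0.05 to 0.10 in young WT muscle. By these medians aged WT replicate 2 was the lowest array in both lists, and aged MISR replicate 1, low in the tendon genes, was near the mean. Single genes differed from the medians, and those given here were named after their values were seen. Dpt, Tnxb, Col14a1, Angptl7, Aspn and Prelp had their 2 lowest values in these 2 arrays, as had the tendon block. Col1a1, Col1a2 and Tnc were instead highest in aged MISR replicate 1.
Between aged WT and young WT muscle 13 of 16 matrix genes and 10 of 10 proteoglycans had a lower mean and none was called, with medians of −0.30 and −0.24. The largest differences were −0.86 for Col1a1 and −0.79 for Col1a2, the chains of the main tendon collagen, −0.75 for Col3a1, and, among the proteoglycans, −0.72 for Ecm2, −0.56 for Podn, −0.44 for Aspn and −0.39 for Prelp. Between aged MISR and aged WT muscle 13 of 16 and 9 of 10 had a higher mean in aged MISR. Their medians were 0.40 and 0.35, with no call. In the same comparison 7 of the 9 tendon genes and 45.8% of all tested genes had a lower mean. Of these tendon genes Comp, Mkx, Fmod and Tnmd were close to no difference, at −0.0067, −0.011, −0.050 and −0.075. The tendon count turned round without aged WT replicate 3, where 6 of 8 tested tendon genes had a higher mean (median 0.29). The matrix and proteoglycan counts were not tested without aged WT replicate 2, their lowest array. Lox, which cross-links collagen, was the only gene called in the lists of matrix, proteoglycan, thrombospondin, regulator and junction genes. It rose by 0.88 in aged MISR muscle relative to young WT muscle (adjusted p = 0.0337 from limma), at 7.64 and 7.35 in aged MISR, 6.95 and 7.16 in aged WT, and 6.61, 6.57 and 6.68 in young WT muscle. Without young WT replicate 1 no gene at all was called in this comparison, Lox included.
Col1a1, made in bone as well as tendon, was highest in aged MISR replicate 1, where Tnmd and Kera were lowest. It read 11.2 there, against 9.20 in aged MISR replicate 2, 8.72 and 9.30 in aged WT muscle, and 9.73, 9.90 and 9.96 in young WT muscle. Prg4, the lubricant proteoglycan of joint and tendon surfaces and named after its values were seen, read 8.33 and 8.80 in aged MISR, 9.85 and 10.6 in aged WT, and 9.42, 9.64 and 10.1 in young WT muscle. Both aged MISR arrays lay below the 5 WT arrays, and the difference from aged WT muscle was −1.66 (adjusted p = 0.123 from limma).

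Genes that act upstream of the tendon program and structural genes of the junction are given next. None of 14 tested tendon regulators was called in any comparison, with median differences of −0.03 for aged WT minus young WT, −0.01 for aged MISR minus aged WT and 0.05 for aged MISR minus young WT. Egr1, a factor that induces tendon collagens, read 8.17 and 7.43 in aged MISR, 6.89 and 6.69 in aged WT, and 7.15, 7.13 and 7.03 in young WT muscle, with a difference of 1.01 for aged MISR minus aged WT that did not pass (adjusted p = 0.15 from limma). The ligand Tgfb2 and the homeobox factor Six2 differed by 0.51 and 0.35 for aged WT minus young WT, and neither passed. None of 12 tested junction genes was called, with medians of −0.13, 0.16 and 0.04 in the same order. Col22a1, a collagen found at the junction, read 6.66 and 6.80 in aged MISR, 6.74 and 6.85 in aged WT, and 7.03, 6.90 and 6.85 in young WT muscle, and was named after its values were seen. The other thrombospondins were not called, and their medians in these comparisons were −0.10, 0.19 and 0.16.

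Several marker lists set aged MISR replicate 1 apart from the other arrays, and fewer did so for aged WT replicate 2. In aged MISR replicate 1 the 5 tested of 7 megakaryocyte and platelet markers had a median of 1.29 relative to the gene means, against −0.58 in aged MISR replicate 2, −0.33 and −0.54 in aged WT and −0.17 to 0.30 in young WT muscle. Of 10 bone cell markers 2 were tested, with a median of 1.36 in aged MISR replicate 1, against −0.52 in aged MISR replicate 2, −0.61 and −0.28 in aged WT and −0.11 to 0.21 in young WT muscle. The bone sialoprotein Ibsp read 9.07 in aged MISR replicate 1, against 5.16 in aged MISR replicate 2, 5.99 and 6.17 in aged WT, and 6.28, 6.34 and 7.02 in young WT muscle. The other tested bone marker, Alpl, was higher in both aged MISR arrays than in every WT array, and highest in replicate 2. It read 8.16 and 8.30 in aged MISR replicates 1 and 2, 7.30 and 7.79 in aged WT, and 8.02, 8.08 and 7.90 in young WT muscle. The median of the 2 tested genes in aged MISR replicate 1 thus came mostly from Ibsp. The bone markers under the signal filter were named after their values were seen. Of these, Bglap, Sp7, Phex and Dmp1 were also highest in aged MISR replicate 1, at 5.89, 5.99, 5.82 and 4.46, and Mepe was not. The next highest array read 5.73, 5.46, 5.33 and 4.45 in the same order, so that Bglap and above all Dmp1 led by little. Slow fiber markers (9 of 9 tested) stood at −1.03 and −0.01 in aged MISR replicates 1 and 2, −0.10 and −0.63 in aged WT replicates 2 and 3, and 0.46 to 0.52 in young WT muscle.
By their median the slow fiber markers were thus low together with the tendon genes in aged MISR replicate 1. Tpm3, named after its values were seen, instead had its highest value in that array, at 8.93. In aged WT muscle the replicate with the lower slow fiber signal was the one with the higher tendon signal. Of the muscle fiber markers none was called. Myh2, a fast oxidative myosin, was the one that varied most, at 11.6 and 12.6 in aged MISR, 11.4 and 11.5 in aged WT, and 12.3, 12.3 and 12.2 in young WT muscle, and the myoglobin gene Mb differed by −0.47 for aged WT minus young WT. Markers of fibro-adipogenic progenitors (9 of 10 tested) were −0.07 and 0.30 in aged MISR, −0.42 and −0.14 in aged WT, and 0.05 to 0.13 in young WT muscle. Macrophage markers (10 of 10) were 0.50 in both aged MISR arrays, 0.06 and −0.51 in aged WT, and −0.22 to −0.10 in young WT muscle, with 1 (Ctss) called, which rose in aged MISR relative to young WT muscle by 1.04 (adjusted p = 0.0455 from limma). No gene was called, Lox and Ctss included, without both low arrays or without young WT replicate 1. Adipocyte markers (7 of 9) were highest in aged MISR replicate 2, at 0.50 against −0.28 in replicate 1, −0.09 and −0.07 in aged WT and −0.06 to −0.02 in young WT muscle. Schwann cell markers (3 of 7) lay between −0.10 and 0.16.
Cartilage also makes Chad, Comp and Cilp2. Of its 11 markers 6 were tested, with array medians of −0.18 and −0.10 in aged MISR, 0.02 in both aged WT and 0.02 to 0.08 in young WT arrays, and Acan, Matn1, Matn3, Hapln1 and Cnmd were under the signal filter. The part of these markers in the tendon readings was not tested.

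**Figure D4:**
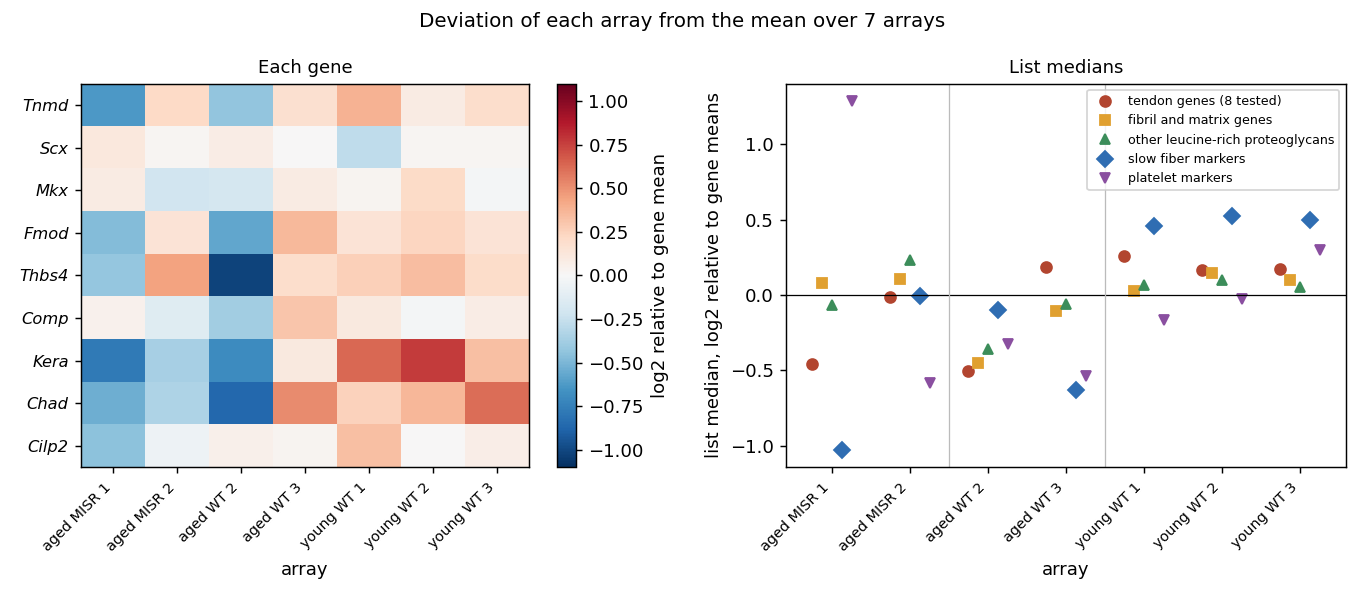
Deviation (log2) from the mean over the 7 arrays, for each gene by array on the left (color scale) and for list medians by array on the right. The median of the tendon genes is low in aged MISR replicate 1 (−0.46) and aged WT replicate 2 (−0.51). That of the fibril and matrix genes is low in the second of these only, although single genes of that list were low in both. That of the platelet markers is high in the first only.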

How the data were processed

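RNA of whole skeletal muscle was measured on 1-colour Affymetrix gene arrays (Mouse Gene 2.0 ST). The authors normalized them with RMA, and the deposited values are log2 signals. Its version was not found in the labels or methods. Of 41345 features, 23521 had 1 gene symbol in the platform annotation. Left out were 16004 features not listed there and 1820 listed with more than 1 symbol. Of several features per gene the one with the highest mean was kept (22180 genes). The 13364 genes that reached the median of the array in 2 arrays or more were fitted with limma 3.58.1 in R 4.3.3, with 4 residual and 3.13 prior degrees of freedom. P-values were adjusted by Benjamini-Hochberg over all tested genes. The fit was tested on simulated data. Arrays have no count depth, and their number limits the precision. No statement that the replicate numbers pair the samples was found, and the main fit did not pair them.

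The 9 genes and the lists were chosen with earlier results of these data known. Besides the 9 genes, those named were the called or the most different members of each list (at most 4) and the genes most like the list in pattern, except where the text says that values had been seen. The alternatives were another quantile normalization, median centring, no filter or a stricter one, the averaged features of a gene, each array left out, the replicate number as a block, another variance prior, array weights, a fit of 2 groups and the 2-group test that the methods name.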

Additional observations from a re-analysis of the deposited data

How the results depend on the processing

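No tendon gene passed in any comparison under any alternative (lowest adjusted p = 0.0644 from limma, Chad in aged WT against young WT muscle without aged WT replicate 3). What moved were signs and the calls over all genes. Over all genes 24 were called between aged WT and young WT, 7 between aged MISR and aged WT and 79 between aged MISR and young WT muscle. In the same order they were 49, 15 and 128 after median centring of the arrays, 0, 4 and 21 without a filter, 118, 2 and 26 with array weights, 162, 0 and 13 in a fit of 2 groups, and 1, 3 and 6 by the 2-group test. With the replicate number as a block (replicate block), or without both aged WT replicate 2 and aged MISR replicate 1, they were 0, 0 and 0. The first was 57 with a stricter filter and 88 with another variance prior, and the third 34 after quantile normalization. With 1 array left out they ranged from 0 to 164, from 0 to 106 and from 0 to 458.

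The median difference of the tested tendon genes ranged from −0.71 to 0.017, from −0.37 to 0.29 and from −0.65 to −0.11 with 1 array left out, and the third was −0.11 without both low arrays. For aged WT minus young WT, leaving out 1 array gave −0.76 to 0.17 for Fmod, −0.44 to 0.25 for Comp and −1.27 to 0.11 for Chad, and without both low arrays these were 0.17, 0.25 and 0.11. For aged MISR minus aged WT it gave −0.38 to 0.35 for Tnmd, −0.019 to 0.076 for Scx, −0.51 to 0.41 for Fmod, −0.18 to 1.03 for Thbs4, −0.35 to 0.34 for Comp, −0.68 to 0.12 for Kera and −0.95 to 0.43 for Chad. In this comparison 6 of 8 were higher in aged MISR with the replicate block (median 0.10), which gave 0.10 for Tnmd, 0.21 for Fmod, 0.068 for Comp and 0.12 for Chad, median centring gave 0.030 for Comp, and Tnmd was 0.042 without both low arrays. In aged MISR against young WT muscle Thbs4 ranged from −0.69 to 0.18 and was 0.18 without both low arrays. Leaving out both arrays was chosen after seeing the data. Of the tested tendon genes, Thbs4 alone changed sign between aged MISR and young WT muscle under any alternative. The deviations of arrays with the same replicate number had correlations of −0.224 to −0.00822, and the block changed no call of a tendon gene. Tnmd reached the filter in 2 arrays only and could not be tested without either of them, aged MISR replicate 2 and young WT replicate 1. The causes were not tested. With a single array left in a group, it was assumed to vary like the others.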
